A study of Rattus norvegicus with 36 samples.

Results

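The 6 peroxiredoxins Prdx1 to Prdx6, the microsomal glutathione S-transferases Mgst1 and Mgst3, and the glutathione peroxidases Gpx1 and Gpx4 were followed in 4 regions of the rat brain, 6 weeks after a blast or a sham procedure. They were chosen by gene symbol in 1 table of RNA sequencing counts per region, and are 10 of the 26142 genes in any table and of the 21121 in all 4. Each table held all 10, and all 10 passed the filter on low counts in every comparison. Prdx2 and Mgst3 were selected on measured values, the log2 fold change of blast over sham in cerebellum for Prdx2 and in anterior cortex for Mgst3, so their values there, blast and sham, are a description, with no test. Blast-exposed and sham rats gave 5 and 5 libraries of hippocampus, 5 and 4 of amygdala, 3 and 5 of anterior cortex, and 5 and 4 of cerebellum. The sources used here do not give strain, age, sex, blast pressure or whether animals were pooled. Libraries are called by the number in their title, which recurs between regions (blast 1, 2, 5, 6 and 9, sham 10, 12, 13, 16 and 18). Whether a number stands for 1 animal is not stated, and the p-values below reflect the scatter among these libraries alone, which may be partly technical.

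Peroxiredoxins and glutathione peroxidases reduce hydrogen peroxide and lipid peroxides, and so limit oxidative damage in a tissue that uses much oxygen and is rich in unsaturated lipid. Peroxiredoxins take their electrons from thioredoxin or, for Prdx6, from glutathione, while glutathione peroxidases and the microsomal transferases use glutathione. The enzymes are spread over compartments: Prdx1 and Prdx2 in the cytosol, Prdx3 in mitochondria, Prdx4 in the endoplasmic reticulum, Prdx5 in several of them, and Mgst1 and Mgst3 in membranes. Prdx1 is a classic target of Nrf2, the transcription factor of the oxidative stress response, which binds the antioxidant response element.

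Promoter sequences are shown for the members whose values the results below turn on, Prdx2 and Mgst3, which were picked, and Prdx1, Prdx4 and Gpx1, whose levels varied together. Each is the 250 bases before the RefSeq gene start in build GRCr8, read 5′ to 3′ on the strand of the gene. The core of the antioxidant response element, TGACNNNGC, was searched on both strands and is in capitals where found. The windows are chr5:135383656-135383905 for Prdx1 (plus strand), chr19:40090983-40091232 for Prdx2 (minus strand), chrX:43878483-43878732 for Prdx4 (plus strand), chr8:117905212-117905461 for Gpx1 (plus strand) and chr13:82080296-82080545 for Mgst3 (minus strand).
Prdx1: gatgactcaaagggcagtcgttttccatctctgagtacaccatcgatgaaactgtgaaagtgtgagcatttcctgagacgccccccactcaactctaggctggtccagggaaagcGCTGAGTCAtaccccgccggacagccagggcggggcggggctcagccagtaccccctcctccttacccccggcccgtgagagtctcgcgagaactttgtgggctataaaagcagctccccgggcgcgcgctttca
Prdx2: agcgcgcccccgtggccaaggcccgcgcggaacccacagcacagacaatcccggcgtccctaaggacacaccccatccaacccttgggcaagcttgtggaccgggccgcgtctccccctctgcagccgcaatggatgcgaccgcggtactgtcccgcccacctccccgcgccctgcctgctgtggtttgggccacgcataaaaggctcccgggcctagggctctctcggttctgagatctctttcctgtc
Prdx4: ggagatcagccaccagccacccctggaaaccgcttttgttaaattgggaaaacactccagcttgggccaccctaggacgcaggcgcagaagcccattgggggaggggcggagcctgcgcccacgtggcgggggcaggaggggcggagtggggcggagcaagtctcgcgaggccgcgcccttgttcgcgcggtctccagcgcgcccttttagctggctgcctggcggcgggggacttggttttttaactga
Gpx1: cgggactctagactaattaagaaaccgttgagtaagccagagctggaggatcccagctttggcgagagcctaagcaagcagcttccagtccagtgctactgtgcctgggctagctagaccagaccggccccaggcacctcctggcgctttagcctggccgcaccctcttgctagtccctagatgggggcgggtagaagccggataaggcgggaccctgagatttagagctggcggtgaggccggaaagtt
Mgst3: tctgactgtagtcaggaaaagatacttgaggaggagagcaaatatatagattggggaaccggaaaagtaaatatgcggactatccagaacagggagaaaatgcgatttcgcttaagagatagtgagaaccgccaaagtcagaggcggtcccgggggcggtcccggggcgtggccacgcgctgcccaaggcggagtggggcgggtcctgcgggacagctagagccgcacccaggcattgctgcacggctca
In the authors' tables, on a build they do not name, Prdx2 (ENSRNOG00000003520) spans chr19:26084903-26090094 and Mgst3 (ENSRNOG00000004245) chr13:85601499-85622314. Of the 9 members with a window, Prdx1 alone held a match, on the strand opposite to the gene, from base -135 to base -127 counted back from the start. Of all 33469 windows of this length, 3373 (10.1%) held 1 or more matches. A match is letters only, and none of these files measured binding.

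Libraries held 15426786 to 23460322 counts on genes. Markers set cerebellum apart (Pcp2, a Purkinje cell gene, 159 to 212 CPM, counts scaled to library size with TMM factors, against at most 0.228 CPM elsewhere) and likewise hippocampus (Prox1, a dentate granule cell gene, 88.8 to 176 CPM against at most 58.6 CPM elsewhere). Of 5 measured amygdala markers, 1 was highest in amygdala (Nr2f2, median 79.1 CPM, against 12.3 to 15 CPM in the other regions). Markers of choroid plexus, the tissue that secretes cerebrospinal fluid, varied between libraries. The 12 measured, of 13 listed, summed to 93.5 to 10577 CPM in blast hippocampus and 107 to 706 CPM in sham hippocampus. They summed to 68.5 to 2497 CPM in blast amygdala and 72.2 to 91.5 CPM in sham amygdala, and to 148 to 2424 CPM in blast cerebellum and 158 to 3496 CPM in sham cerebellum. In anterior cortex Ttr, the defining gene, reached at most 1.79 CPM in blast and 2.0 CPM in sham libraries.

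Across the 4 regions of sham brains, cerebellum carried less Prdx6 and more Mgst1 than each other region and less Mgst3 than hippocampus and amygdala, and Prdx3, Prdx5 and Gpx4 were not shown to differ. Levels of different genes are compared by the authors' FPKM, a value per length. For 8 members it equals the count over the gene length given in the tables and the library total, but for Prdx6 it is 1.86 and for Gpx4 2.04 times that, so the place of these genes depends on the length used. In sham cerebellum Prdx2 was the most abundant, at 254 ± 5.26 FPKM, ahead of Prdx5 at 105 ± 6.98 FPKM (SD, n = 4). Prdx6 was at 92.8 ± 9.34 FPKM there, above Mgst3 (63.4 ± 5.43) and Prdx1 (62.6 ± 5.15), and at 49.8 ± 5.01 on the tables' length, below both. In sham anterior cortex Prdx2 was at 186 ± 12.6 FPKM and Prdx6 at 189 ± 21.4 FPKM, or at 102 ± 11.5 on the tables' length (SD, n = 5). Mgst3 (93.4 ± 6.66), Prdx5 (87.8 ± 14.5) and Prdx1 (66.9 ± 4.93 FPKM) followed there. Next came Gpx1 at 43.3 ± 8.02, Prdx3 at 26.4 ± 2.25, Prdx4 at 12.1 ± 1.71 and Mgst1 at 6.12 ± 2.57 FPKM. Gpx4 was the lowest in all 4 regions on either length, with sham means of 0.696 to 1.62 FPKM. It had 3 to 39 counts per library, and 82.2% of its annotated span overlaps Sbno2 on the other strand. Its true level may therefore not be measured here.

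**Figure D1:**
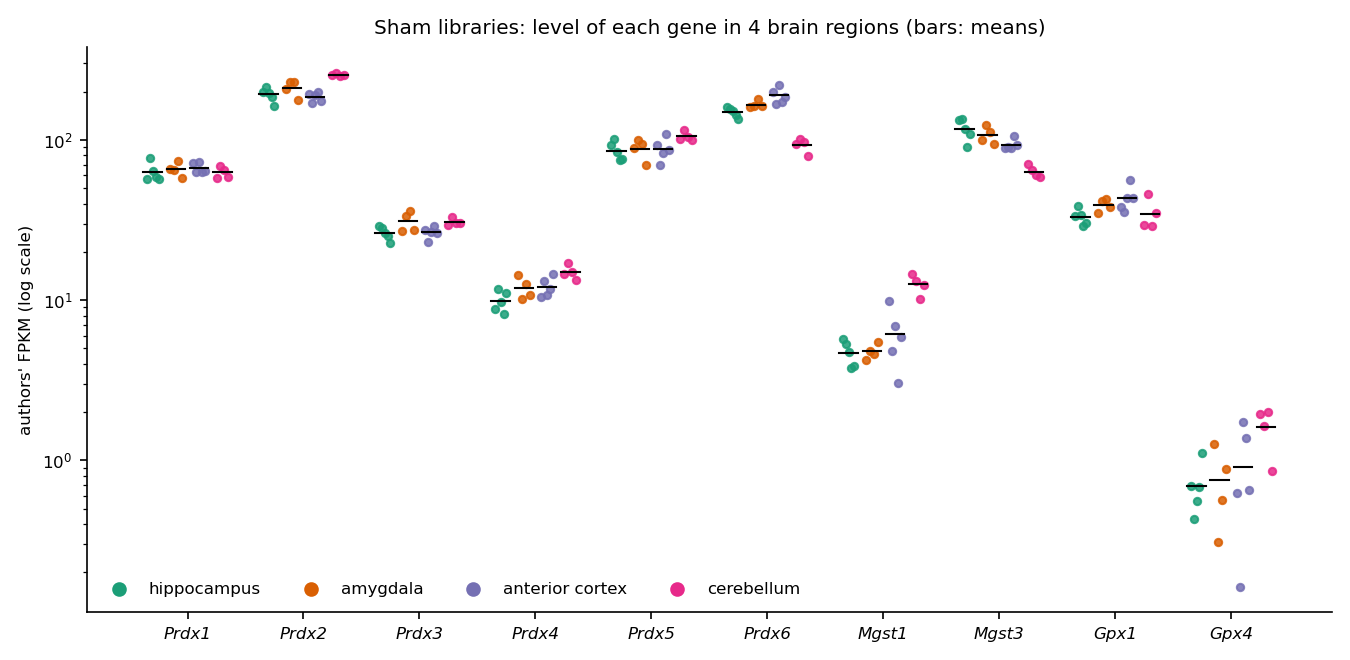
Authors' FPKM of each gene (log scale) in sham libraries of 4 regions, with 1 point per library and bars at the means. The cerebellum means lie below those of the other regions for Prdx6, Mgst3 and, narrowly, Prdx1, and above them for Mgst1, Prdx2, Prdx4, Prdx5 and Gpx4. FPKM carries no TMM factors, unlike the CPM of the tests. The FPKM of Prdx6 and Gpx4 is 1.86 and 2.04 times that on the tables' gene length. Gpx4 lies lowest, at 0.696 to 1.62 FPKM on average, from 3 to 39 counts per library, and may not be fully measured.

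The 3 degree of freedom test of edgeR over sham libraries called 5 of 8 members (Prdx1, Prdx4, Prdx6, Mgst1 and Gpx1) at an adjusted p under 0.05, with Prdx2 and Mgst3 set aside because their choice used sham libraries, against 81% of the 16381 genes tested, so the share of members was no higher than that of all genes. Prdx6, a peroxidase and phospholipase that astrocytes express strongly, had 96.0, 99.0, 97.7 and 80.2 CPM in sham cerebellum. It had 150.1 to 176 CPM in sham hippocampus, 169 to 187 CPM in sham amygdala and 198 to 264 CPM in sham anterior cortex, with no overlap between cerebellum and any of these. Its log2 difference was -0.81 (SE 0.082) for cerebellum over hippocampus, -0.90 (0.086) over amygdala and -1.26 (0.083) over anterior cortex (edgeR adjusted p = 3.92e-08, 1.61e-08 and 4.54e-11). Prdx6 was also lower in hippocampus than in anterior cortex, at -0.46 (0.076), and in amygdala than in anterior cortex, at -0.36 (0.081, edgeR adjusted p = 4.9e-05 and 0.00183). Hippocampus and amygdala, the neighbours in this order, were not shown to differ (-0.09, 95% interval -0.26 to 0.08).

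Mgst3, a membrane enzyme with glutathione transferase and peroxidase activity, had 32.4 to 39.6 CPM in sham cerebellum, against 55.6 to 81.7 CPM in sham hippocampus, 57.0 to 70.9 CPM in sham amygdala and 58.7 to 66.4 CPM in sham anterior cortex. The difference was -1.01 (SE 0.098) from hippocampus and -0.82 (0.103) from amygdala on the log2 scale (edgeR adjusted p = 2.03e-08 and 7.18e-07). From anterior cortex, whose libraries its choice used, it was -0.79, with no test. Mgst1, a membrane-bound transferase of the endoplasmic reticulum and mitochondria, ran the other way. It had 8.94 to 13 CPM in sham cerebellum, 3.65 to 5.55 CPM in sham hippocampus, 3.95 to 5.25 CPM in sham amygdala and 3.01 to 10.5 CPM in sham anterior cortex. It was higher in cerebellum by 1.28 (0.239), 1.33 (0.257) and 0.79 (0.237) on the log2 scale (edgeR adjusted p = 0.000102, 0.000148 and 0.00605), although cerebellum and anterior cortex overlapped.

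Prdx2, a cytosolic peroxiredoxin that neurons express strongly, had 207, 206, 203 and 206 CPM in sham cerebellum, against 147 to 189 CPM in hippocampus, 155 to 193 CPM in amygdala and 168 to 189 CPM in anterior cortex. The cerebellum values helped to choose it, so the differences, 0.28 from hippocampus, 0.21 from amygdala and 0.22 from anterior cortex on the log2 scale, are a description. In blast libraries those from hippocampus and amygdala were 0.08 and 0.09. Blast anterior cortex averaged 156 ± 24.5 CPM, against 180.3 ± 8.44 CPM in blast cerebellum (SD, n = 3 and 5). The blast values of cerebellum helped to choose Prdx2 too, so these are also a description. Gpx1, the main cytosolic glutathione peroxidase, was lower in cerebellum than in anterior cortex, at -0.55 (0.126) and in hippocampus than in anterior cortex, at -0.48 (0.118, edgeR adjusted p = 0.000703 and 0.00192). Prdx4, the secretory pathway peroxiredoxin, was lower in hippocampus than in anterior cortex, at -0.39 (0.127) and higher in cerebellum than in hippocampus by 0.46 (0.134, edgeR adjusted p = 0.015 and 0.00513). Without sham library 18 of anterior cortex the first of these was -0.31 (edgeR adjusted p = 0.0537). With blast libraries in place of sham, hippocampus over anterior cortex turned to 0.20 for Gpx1 and 0.16 for Prdx4, and cerebellum over hippocampus turned to -0.13 for Prdx4. Gpx1 in cerebellum over anterior cortex was then -0.51 (edgeR adjusted p = 0.0656). The blast hippocampus libraries include number 6, the highest of the 10 in hippocampus for Gpx1 (70.3 CPM) and Prdx4 (23.6 CPM), and blast anterior cortex has 3 libraries. In sham libraries Prdx1 was lower in cerebellum than in anterior cortex, at -0.33 (0.089, edgeR adjusted p = 0.00264), while its FPKM values there, 62.6 ± 5.15 in cerebellum and 66.9 ± 4.93 in anterior cortex, lay within their spread (SD, n = 4 and 5).

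By pairs of regions, edgeR called 4 of 8 members between cerebellum and anterior cortex, where 68.7% of all genes were called, 4 of 9 between cerebellum and hippocampus (62.8% of all genes) and 3 of 9 between cerebellum and amygdala (64.7%; 5 without sham library 12 of amygdala). It called 3 of 9 between hippocampus and anterior cortex (51%; 5 without sham library 16 of anterior cortex), 1 of 9 between amygdala and anterior cortex (31.5%; 2 without sham library 12 of hippocampus) and 0 of 10 between hippocampus and amygdala (33.2%; 1 without sham library 16 of hippocampus), where 0 members had an unadjusted p under 0.05. Genes of thioredoxin and glutathione metabolism were also tested between cerebellum and anterior cortex, and 80%, 72.2% and 68.8% of the lists described next were called, against 68.7% of all genes. In the other lists, 72.7% of ferroptosis neighbours of Gpx4, 62.5% of Nrf2 pathway genes, 53.3% of selenoprotein genes and 40% of superoxide dismutase and catalase genes were called. Of 15 tested thioredoxin and repair genes 2 were higher and 10 lower in cerebellum, among them Txnrd3, a thioredoxin reductase, at -1.32 (SE 0.107), and Glrx, a glutaredoxin, at -0.86 (0.091) on the log2 scale. Of 18 tested other glutathione peroxidases and transferases 1 was higher and 12 lower, with Gstm2 at -1.71 (0.122) and Gstp1 at -0.88 (0.083), both cytosolic transferases. Of 16 glutathione synthesis, recycling and transport genes 6 were higher and 5 lower, with Oplah, which returns 5-oxoproline to glutamate, at 1.89 (0.12), and Slc7a11, the cystine importer, at -2.21 (0.168). Each of these 6 genes passed edgeR's test, with adjusted p of 5.89e-08 or less. In bulk tissue, fewer cells of a type and less RNA per cell cannot be told apart.

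With the picked values aside, no member passed edgeR's quasi-likelihood test of blast against sham in any region. In hippocampus 0 of 10 were called, against 0% of 15349 genes, and 1 (Gpx1) had an unadjusted p under 0.05. In amygdala 0 of 10 were called, against 0% of 15884 genes, and again Gpx1 alone had an unadjusted p under 0.05. Without the picked gene, 0 of 9 were called in anterior cortex, against 0.00634% of 15765 genes, and 0 of 9 in cerebellum, against 0% of 15225 genes, with 0 at an unadjusted p under 0.05 in both, against 5.82% and 6.82% of genes. DESeq2 called 0 of these members in each region as well. Of the 10 members, 8 were higher in blast hippocampus (median log2 fold change 0.22) and 7 in blast amygdala (0.09), while 9 were lower in blast anterior cortex (-0.19) and 9 in blast cerebellum (-0.11), the picked gene among them. With a trend with gene length and level removed, 7 were lower in anterior cortex and 9 in cerebellum, and of genes of 600 to 1500 bases and 30 to 300 CPM, 75.8% and 73.6% were lower there. Not all members lie in that window. Prdx6 and Gpx4 are longer, and Prdx4, Mgst1, Gpx4 and, in cerebellum, Gpx1 averaged below its levels. Of all genes tested, 49.4% were lower after blast in hippocampus and 49% in amygdala, and 49.8% were lower in anterior cortex and 50% in cerebellum, with medians of 0.002, 0.003, 0.001 and 0. Blast and sham libraries overlapped for all 10 members in hippocampus and amygdala and for 9 in anterior cortex and cerebellum. Groups without overlap were found for 0.847%, 1.71%, 4.22% and 2.21% of all genes, in the same order of regions.

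**Figure D2:**
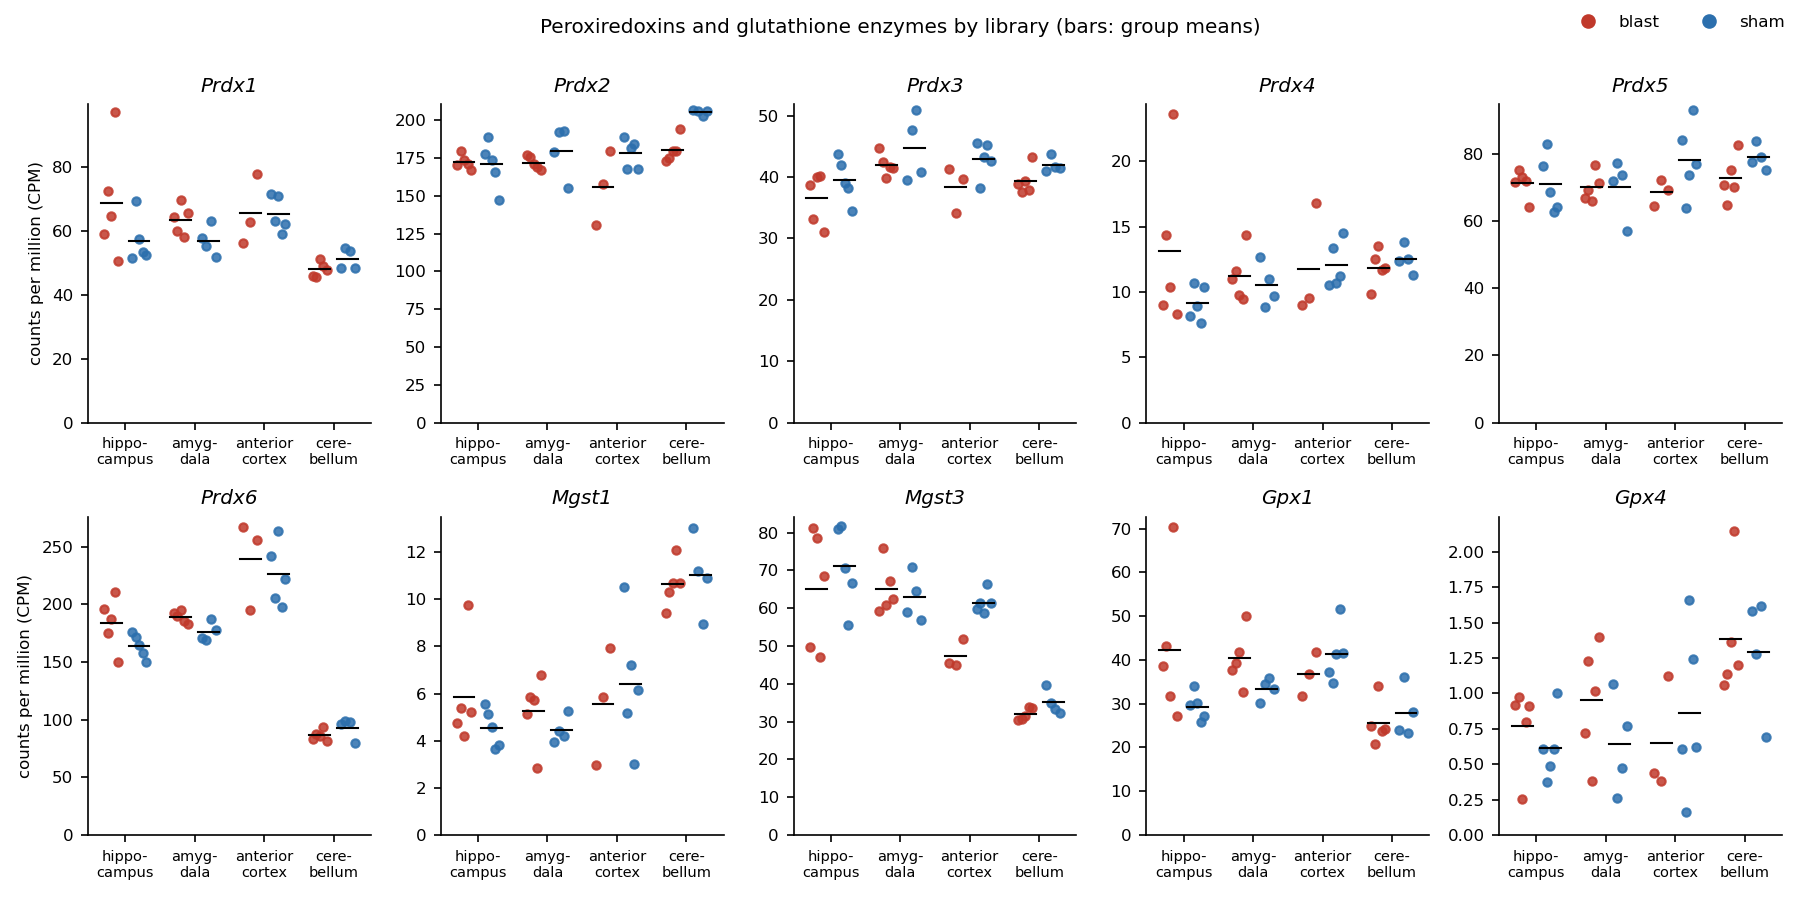
CPM of each gene in 4 regions, with 1 point per library, blast libraries left of sham libraries in each region, and bars at the group means. Blast and sham points overlap everywhere except for Prdx2 in cerebellum (173 to 194 CPM against 203 to 207 CPM) and Mgst3 in anterior cortex (45.0 to 51.9 CPM against 58.7 to 66.4 CPM).

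**Figure D3:**
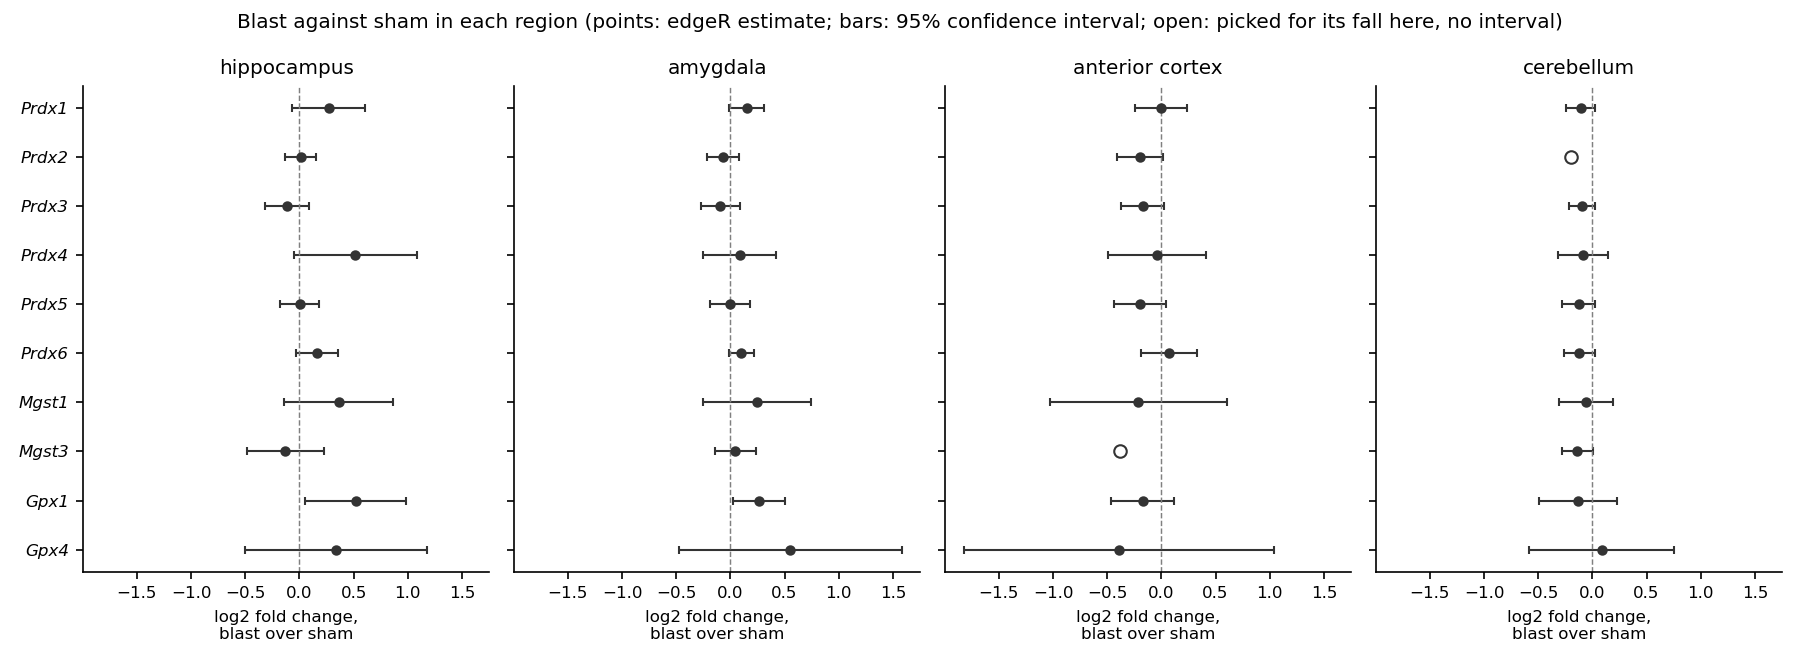
Log2 fold change of blast over sham for each gene and region, with edgeR estimates as points and 95% confidence intervals as bars. Open circles are the picked values, Prdx2 in cerebellum (-0.20) and Mgst3 in anterior cortex (-0.38), shown without an interval, and every other interval but those of Gpx1 in hippocampus and amygdala crosses 0.

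In cerebellum Prdx2 had 173, 175, 179.6, 179.7 and 194 CPM in blast libraries, against 207, 206, 203 and 206 CPM in sham libraries. Every blast library was below every sham library. The groups averaged 180.3 ± 8.44 CPM after blast and 205 ± 1.71 CPM in sham (SD, n = 5 and 4), a log2 fold change of -0.20 or a difference of -12.8%. Groups that do not overlap with blast lower were found for 1.14% of the genes tested in cerebellum. Prdx2 is also abundant in red blood cells, whose 5 measured markers, of 11 listed, summed to 301 to 748 CPM in blast and 469.6 to 771 CPM in sham cerebellum, with none at 0. Fitted beside their score the log2 fold change was -0.20, and beside the choroid plexus score it was -0.19. Both describe the picked value again, and the part of blood or choroid plexus in it was not tested.

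Prdx2 in the other regions, which its choice did not use, gave smaller or less even differences. In anterior cortex it had 131, 158 and 179.6 CPM in blast libraries, against 189, 168, 182, 184 and 168 CPM in sham libraries. Blast libraries 1 and 5 were below all sham libraries and blast library 6 was among them, with a log2 fold change of -0.20 (SE 0.097, 95% interval -0.41 to 0.01, edgeR adjusted p = 0.842). It was -0.09 without blast library 1 and -0.32 without blast library 6. It was -0.07 (0.069) in amygdala and 0.01 (0.067) in hippocampus, with edgeR adjusted p of 0.918 and 0.975. Averaged by library number over the regions each number has among hippocampus, amygdala and anterior cortex, Prdx2 differed by -0.07 (SE 0.056, 95% interval -0.19 to 0.06) between 5 blast and 5 sham numbers (limma adjusted p = 0.745). Blast numbers 2 and 9 had no anterior cortex library, and sham number 10 had no amygdala library. limma called 0% of 17120 genes in this comparison, and 7.74% had an unadjusted p under 0.05.

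Prdx1, the other cytosolic peroxiredoxin, had 59.1, 72.3, 64.6, 97.1 and 50.6 CPM in blast hippocampus, against 51.6, 69.4, 57.4, 53.4 and 52.3 CPM in sham hippocampus. Blast library 6 was far above the rest and blast library 9 was the lowest of all 10. The log2 fold change was 0.27 (SE 0.154, edgeR adjusted p = 0.816), and 0.11 (0.111) without blast library 6. In amygdala Prdx1 was at 0.15 (0.075) and in anterior cortex at 0.00 (0.108), and in cerebellum it was at -0.11 (0.061), with edgeR adjusted p of 0.755 or more. RefSeq names 7 pseudogenes after Prdx1 in this species, so its counts may include reads of near-identical copies.

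No compartment peroxiredoxin passed the test. Prdx3, of the mitochondrial matrix, was lower after blast in all 4 regions, at -0.12 (SE 0.095) for hippocampus, -0.09 (0.082) for amygdala, -0.17 (0.091) for anterior cortex and -0.10 (0.055) for cerebellum, and none passed (edgeR adjusted p = 0.744 or more). In cerebellum 4 of its 5 blast libraries lay below all sham libraries, at 37.6 to 43.2 CPM after blast and 40.9 to 43.7 CPM in sham. Prdx5, found in mitochondria, peroxisomes and cytosol, had log2 fold changes of 0.00 in hippocampus and amygdala (SE 0.083 and 0.086), -0.20 (0.110) in anterior cortex and -0.13 (0.068) in cerebellum, with edgeR adjusted p of 0.741 or more. Prdx4 had 8.98, 14.4, 10.4, 23.6 and 8.34 CPM in blast hippocampus, against 8.15, 10.7, 8.92, 7.6 and 10.4 CPM in sham hippocampus. Blast library 6 was again the highest, and the log2 fold change of 0.52 (0.261, edgeR adjusted p = 0.816) was 0.20 (0.171) without that library. In the other regions Prdx4 lay between -0.09 and 0.09.

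Prdx6 was higher in blast hippocampus by 0.16 (SE 0.087), where 3 of 5 blast libraries were above all sham libraries (150.5 to 211 CPM after blast, 150.1 to 176 CPM in sham). It was higher in blast amygdala by 0.10 (0.053), with 3 of 5 above, at 183 to 195 CPM after blast and 169 to 187 CPM in sham. Neither passed (edgeR adjusted p = 0.816 and 0.901), nor did 0.07 (0.117) in anterior cortex or -0.12 (0.066) in cerebellum (0.931 and 0.744). RefSeq names 3 Prdx6 pseudogenes, and 21.6% of the gene's annotated span overlaps AC127084.2 on the other strand.

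Among the glutathione peroxidases, Gpx1 had 38.6, 43.2, 31.7, 70.3 and 27.2 CPM in blast hippocampus, against 29.6, 34.1, 30.1, 25.8 and 27.2 CPM in sham hippocampus. In amygdala it had 37.7, 39.4, 41.9, 32.7 and 50.1 CPM in blast libraries, against 30.1, 34.5, 35.8 and 33.3 CPM in sham libraries. In hippocampus 3 and in amygdala 4 of 5 blast libraries were above all sham libraries. The log2 fold change was 0.52 (SE 0.214, 95% interval 0.05 to 0.99) in hippocampus and 0.27 (0.110, 0.03 to 0.51) in amygdala, and neither passed adjustment over all genes (edgeR adjusted p = 0.816 and 0.901). An unadjusted p under 0.05, which both had, was found for 5.24% of genes in hippocampus and 5.22% in amygdala. Without the library richest in choroid plexus markers in each region, blast 6 and blast 9, Gpx1 was at 0.26 (0.128) and 0.18 (0.091). Gpx1 was lower after blast in anterior cortex and cerebellum, at -0.17 (0.132) and -0.13 (0.163), with edgeR adjusted p of 0.858 and 0.887.

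The test of whether a member's blast difference varies between regions, over all 36 libraries and with the picked genes aside, called 0 of 8 members, against 0.0117% of 17120 genes. Gpx1 had the smallest p of these (edgeR adjusted p = 0.909), under 0.05 before adjustment, as for 5.36% of all genes. Averaged over the regions that each number has, Gpx1 was 0.14 higher after blast (SE 0.057, limma adjusted p = 0.74) and Prdx3 was at -0.11 (0.043, limma adjusted p = 0.74). In this comparison limma called 0 of the 8 members and 0% of 17120 genes, with 2 members and 6.64% of genes at an unadjusted p under 0.05. Blast numbers 1, 2, 5, 6 and 9 stood at 0.02, 0.13, 0.15, 0.27 and 0.10 for Gpx1, while sham numbers stood at -0.11 to 0.13 and overlapped them.

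Gpx4, the peroxidase that removes lipid peroxides from membranes, could hardly be measured here. It had 3 to 39 counts per library, or 0.16 to 2.15 CPM. Of its annotated span, 82.2% overlaps Sbno2 on the opposite strand, which had 536 to 1118 counts per library, and the sources used here do not say whether the authors counted by strand. RefSeq also names 4 Gpx4 pseudogenes. The log2 fold changes of 0.34 for hippocampus, 0.55 for amygdala, -0.40 for anterior cortex and 0.09 for cerebellum had SEs of 0.385, 0.470, 0.655 and 0.306. A difference of these sizes was thus not detectable at these counts, and why the counts were low was not tested.

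Among the membrane transferases, Mgst3 had 45.5, 45.0 and 51.9 CPM in blast anterior cortex, against 59.8, 61.3, 58.7, 66.4 and 61.3 CPM in sham anterior cortex. The 3 blast libraries were below all 5 sham libraries. The groups averaged 47.5 ± 3.86 CPM after blast and 61.5 ± 2.97 CPM in sham (SD, n = 3 and 5), a log2 fold change of -0.38 or a difference of -23.2%. Groups without overlap and with blast lower were found for 2.29% of the genes tested in anterior cortex. Genes of the choroid plexus list summed to 139 to 149 CPM in blast and 96.6 to 133 CPM in sham anterior cortex. Ttr was at most 1.79 and 2.0 CPM there, so nearly all of each sum came from other genes of the list. Fitted beside the score of this list the log2 fold change was -0.39, which does not test choroid plexus content in this region.

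Mgst3 outside anterior cortex, which its choice did not use, had 30.4, 30.8, 31.6, 33.8 and 33.7 CPM in blast cerebellum, against 39.6, 34.9, 33.4 and 32.4 CPM in sham cerebellum. There 3 of 5 blast libraries were below all sham libraries, with a log2 fold change of -0.14 (SE 0.066, 95% interval -0.28 to 0.01, edgeR adjusted p = 0.734). In hippocampus it had 49.8, 81.3, 78.6, 47.1 and 68.5 CPM in blast libraries, against 80.9, 81.7, 70.7, 55.6 and 66.7 CPM in sham libraries. Blast libraries 1 and 6 were the lowest of the 10 and the others overlapped the sham libraries, with a log2 fold change of -0.13 (0.163, edgeR adjusted p = 0.854). In amygdala Mgst3 was at 0.05 (0.088, edgeR adjusted p = 0.952). Averaged by number over the regions each number has among the 3 other than anterior cortex, Mgst3 differed by -0.09 (0.082, 95% interval -0.28 to 0.09, limma adjusted p = 0.859), where limma called 0% of 17120 genes and 6.03% had an unadjusted p under 0.05. Mgst1 was at 0.36 (0.232) for hippocampus, 0.24 (0.229) for amygdala, -0.21 (0.376) for anterior cortex and -0.06 (0.115) for cerebellum, and none passed (edgeR adjusted p = 0.816 or more).

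In hippocampus 1 library stood out for 6 members. Its title ends in "re", which the labels do not explain and no other title has. Blast library 6, the richest in choroid plexus markers at 10577 CPM, was the highest of the 10 libraries for 5 members (Prdx1, Prdx4, Prdx6, Mgst1 and Gpx1) and the lowest for Mgst3. Its myelin markers summed to 23339 CPM, against at most 10328 CPM in sham hippocampus, and its red blood cell markers to 657 CPM, against at most 406 CPM. Fitted beside the choroid plexus score, the log2 fold change was 0.01 for Prdx1, 0.03 for Prdx4, 0.08 for Mgst1 and 0.21 for Gpx1, and without the library it was 0.11, 0.20, 0.10 and 0.26. For Prdx6 it was 0.11 either way, and for Mgst3 it was -0.19 beside the score and -0.04 without the library. Blast library 2, second in choroid plexus markers at 3681 CPM, was also second for Prdx1, Prdx4 and Gpx1. Blast library 1, the lowest in these markers at 93.5 CPM, was second for Prdx6 at 196 CPM. Its Gpx1, at 38.6 CPM, was above all sham libraries (at most 34.1 CPM). The part of other tissue in these values was not tested beyond this.

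**Figure D4:**
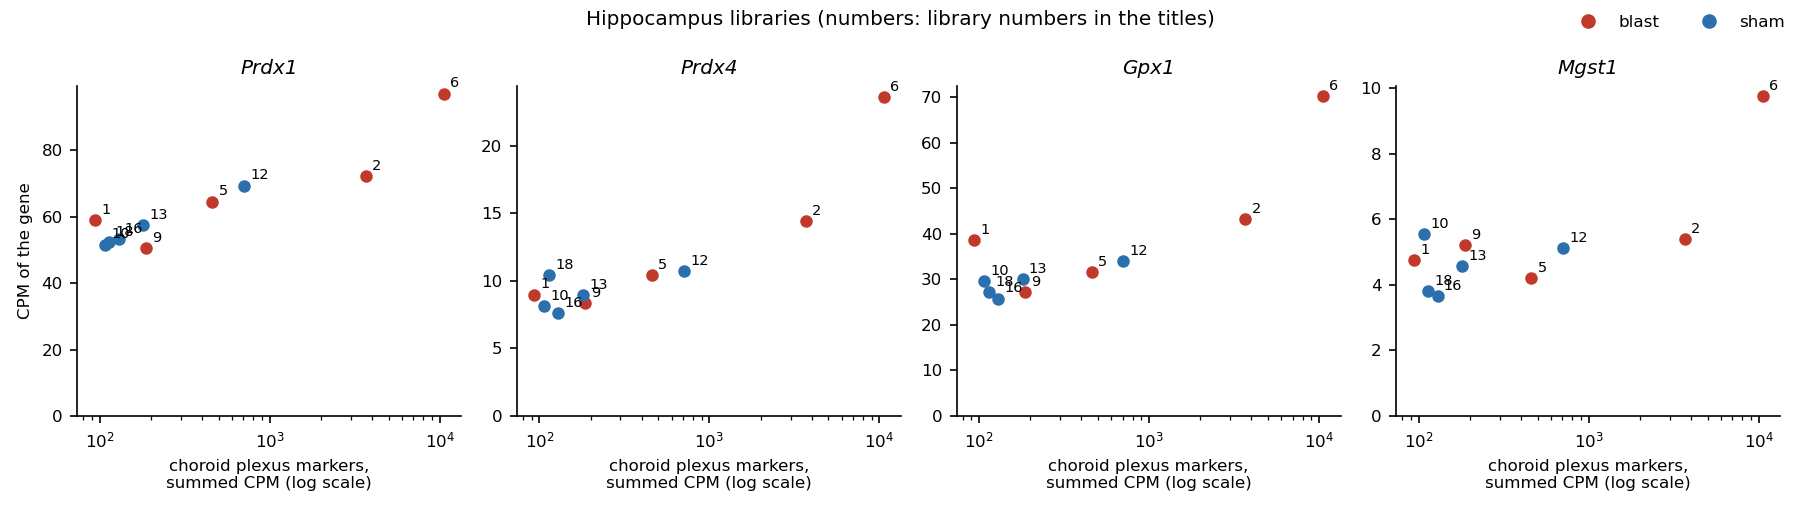
CPM of Prdx1, Prdx4, Gpx1 and Mgst1 in the 10 hippocampus libraries against the summed CPM of choroid plexus markers (log scale), with library numbers beside the points. Blast library 6, at 10577 CPM of markers, is highest for all 4 genes, and blast library 2 is second for the first 3.

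The members are short genes, of 600 bases (Mgst3) to 2030 bases (Prdx6) in the authors' tables. In anterior cortex and cerebellum shorter genes in general were lower after blast, with median log2 fold changes of -0.07 and -0.04 in the shortest quartile and 0.05 and 0.03 in the longest. Of the genes of 600 to 1500 bases and 30 to 300 CPM, 75.8% were lower after blast in anterior cortex (median -0.08) and 73.6% in cerebellum (median -0.05), against 50% in hippocampus and 42.8% in amygdala. Prdx6 and Gpx4 are longer than this, and Prdx4, Mgst1, Gpx4 and, in cerebellum, Gpx1 averaged below these levels. With the trend with length and level removed, Mgst3 was at -0.26 in anterior cortex and Prdx2 at -0.14 in cerebellum, the same sign at a smaller size. In anterior cortex Prdx1 and Prdx4 were then above 0, at 0.09 and 0.05, and Prdx6, at 0.07 before, was at 0.11. Why short genes were lower was not tested.

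**Figure D5:**
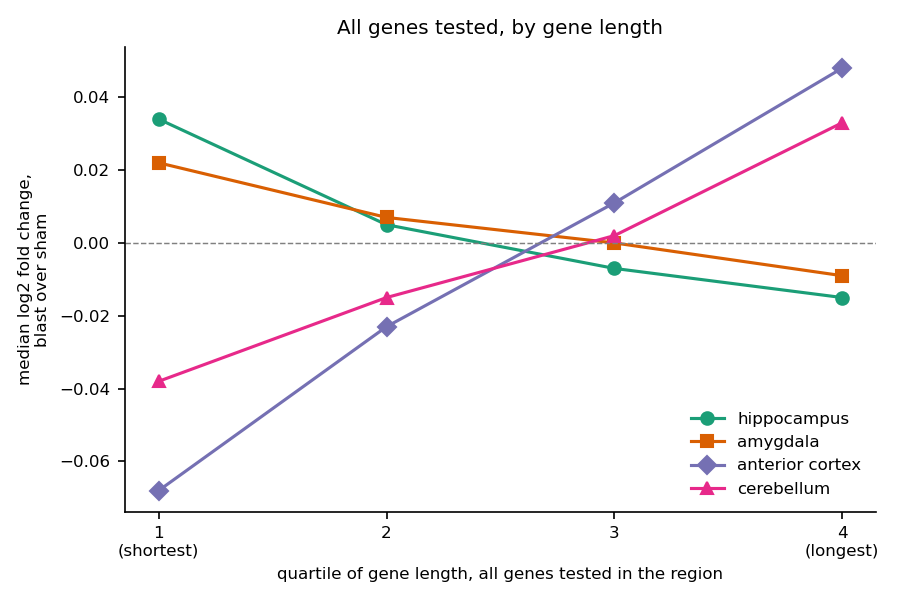
Median log2 fold change of blast over sham of all genes tested, by quartile of gene length, in 4 regions. In anterior cortex and cerebellum the medians go up with length (-0.07 to 0.05 and -0.04 to 0.03), and in hippocampus and amygdala they go down (0.03 to -0.02 and 0.02 to -0.01).

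After subtracting each region's mean, log2 levels of Prdx1, Prdx4 and Gpx1 ran together over the 36 libraries (Pearson r = 0.78 for Prdx1 with Prdx4, 0.75 for Prdx1 with Gpx1, 0.71 for Prdx4 with Gpx1). Prdx2 ran with Prdx5 (r = 0.70) and Prdx3 (0.53), and Mgst3 with Prdx2 (0.50) and little with Prdx1 (-0.13). The libraries share depth, dissection and treatment, so these are descriptions. They include blast library 6 of hippocampus, the highest of the 10 libraries there for Prdx1, Prdx4 and Gpx1. Of 12973 genes, those most like Prdx2 were Ppib, a chaperone of the endoplasmic reticulum (r = 0.78), Cox6b1, Pdhb, Ndufa4 and Ndufv2 (0.77 to 0.74), which are mitochondrial enzymes of respiration and pyruvate oxidation. Those most like Mgst3 were Pebp1, a kinase inhibitor (r = 0.81), Cyc1, Gapdh, Eif5a and Sars (0.77 to 0.75), genes of respiration, glycolysis and translation.

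Genes of the surrounding pathways showed no call after blast in any region. Lists of 15 to 16 tested Nrf2 pathway genes, 15 thioredoxin and repair genes, 16 glutathione synthesis genes and 16 to 18 other glutathione peroxidases and transferases had 0 called by edgeR. In cerebellum 11 of 15 Nrf2 pathway genes, 11 of 15 thioredoxin and repair genes, 12 of 16 other peroxidases and transferases and 12 of 15 selenoprotein genes were lower after blast. Their median log2 fold changes were -0.07, -0.06, -0.11 and -0.07, against 0 for all genes tested there. Of all those genes 50% were lower, and 73.6% of those of 600 to 1500 bases and 30 to 300 CPM. The lists were not limited to such lengths and levels, and the part of gene length in their counts was not tested. Of 10 tested ferroptosis neighbours of Gpx4, 7 were higher in blast cerebellum (median 0.03). In hippocampus, 9 of 15 Nrf2 pathway genes were lower (median -0.03), and all 5 superoxide dismutase and catalase genes were higher (median 0.06), against 0.002 for all genes.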

How the data were processed

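Total RNA of 36 rat brain samples was sequenced, with Qiazol and RNeasy extraction and a NEBNext Ultra RNA kit, per the labels' protocols. Each region has 1 deposited table, in which the authors give the raw read counts of every library by gene, per the file headers. The same deposited tables hold a signal the authors normalized between libraries, log2 fold changes and p-values of their own test, none of which was used here. FPKM values, also deposited by the authors, were used only to set genes side by side. The submitters' processing notes name CASAVA. The sources used here do not state the aligner, counter, build or annotation. The members and all gene lists were chosen with earlier results of these data known.

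Counts passed filterByExpr, were TMM scaled and were fitted in R 4.3.3 with edgeR 4.0.16 (quasi-likelihood F test, Benjamini-Hochberg adjusted p under 0.05 over all genes), within each region for blast against sham, over sham libraries for region levels, and over all libraries for the change of the blast difference between regions. Numbers were compared with limma 3.58.1 on 1 mean log2 value per number (prior count 2). DESeq2 1.42.0, RLE scaling, no filter, leaving out each library, and scores of choroid plexus and red blood cells (mean log2 level of the markers) as covariates were alternatives. The length and level trend was a loess curve of span 0.5. The scripts were tested on simulated data. Intervals are at 95%. Besides the members, at most 3 called genes of smallest p per list were named, and the 5 genes most like Prdx2 and Mgst3.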

Additional observations from a re-analysis of the deposited data

Results flagged for a closer look

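Among 70 sets of 4 or 5 libraries of 1 member, region and treatment, 4 held a library far from the rest by Dixon's criterion at 95%, and chance alone flags about 1 in 20. Prdx6 had 80.2 CPM in sham library 18 of cerebellum, against 96.0 to 99.0 CPM in the other sham libraries. Mgst1 had 9.77 CPM in blast library 6 of hippocampus, the library richest in choroid plexus markers, against 4.22 to 5.39 CPM in the other blast libraries. Gpx4, at few counts per library, had 0.251 CPM in blast library 5 of hippocampus, against 0.8 to 0.975 CPM in the other blast libraries. It had 2.15 CPM in blast library 6 of cerebellum, against 1.06 to 1.36 CPM in the other blast libraries there.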

How the results depend on the processing

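With the picked values aside, 0 members were called in any blast comparison under each alternative that gave an adjusted p, but counts over all genes did. DESeq2 called 1 gene in hippocampus and 8 in amygdala, where edgeR called 0 and 0, and 12 in anterior cortex and 32 in cerebellum, where edgeR called 1 and 0. With no filter the counts were 2 in anterior cortex and 1 in cerebellum, and with the choroid plexus score 0 in anterior cortex. Leaving out 1 library gave 0 to 1 genes in hippocampus and in amygdala, and 0 to 2 genes in anterior cortex and in cerebellum. Of 78 results for single members 15 changed sign under 1 or more alternatives, and the cause was not tested. In hippocampus Prdx2 was -0.028 with the choroid plexus score, -0.039 with the red blood cell score and -0.038 to 0.048 without 1 library. Prdx5 there was -0.001 by DESeq2, -0.004 with no filter, -0.058 and -0.035 with these scores and -0.041 to 0.062 without 1 library. In amygdala Prdx4 was -0.001 with the choroid plexus score and -0.02 to 0.189 without 1 library, Prdx5 -0.088 to 0.048, and Mgst3 -0.028 with the red blood cell score and -0.014 to 0.11. In anterior cortex, without 1 library, Prdx1 was -0.147 to 0.097, Prdx4 -0.39 to 0.124, Prdx6 -0.013 to 0.195 and Mgst1 -0.558 to 0.091. In cerebellum Mgst1 was -0.148 to 0.023, Gpx1 -0.268 to 0.026 and Gpx4 -0.127 to 0.206, and with the choroid plexus score Gpx1 was 0.01 and Gpx4 -0.01. The picked values, Mgst3 in anterior cortex and Prdx2 in cerebellum, ran between -0.452 and -0.346 and between -0.224 and -0.183 without 1 library. With blast in place of sham libraries, hippocampus over anterior cortex had 1 member called, against 3, and cerebellum over amygdala 5, against 3, picked genes aside, with the first's Prdx4 at 0.157 and Gpx1 at 0.197, and Prdx4 was -0.128 in cerebellum over hippocampus. Leaving out 1 sham library gave 2 to 5 members called for hippocampus over anterior cortex, 3 to 5 for cerebellum over amygdala, 0 to 1 for hippocampus over amygdala and 1 to 2 for amygdala over anterior cortex. Same-numbered libraries deviated together weakly, with correlations of -0.1307 to 0.1701 in blast (median 0.0466, 7 of 24 pairs over 0.1) and -0.0386 to 0.15 in sham libraries (median 0.0967, 10 of 24). Between different numbers the medians were -0.0124 in blast and -0.0292 in sham libraries, with 12 of 96 and 1 of 97 pairs over 0.1. The rule asked that every same-numbered pair exceed 0.1, so edgeR's main tests were fitted without the number. The tests of region levels thus took same-numbered sham libraries as independent, while the limma comparison used the number as its unit. With the number as a replicate block, 0 genes differed between regions in their blast difference (also 0 by limma-voom, 2 by edgeR). The block gave 10 genes for blast against sham over all regions, 2 without cerebellum and 2 without anterior cortex, against 0 each by number, and Gpx1 was at 0.135. Few counts, 3 to 39 per library, limit Gpx4, and 3 blast libraries limit anterior cortex.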
